A study of Mus musculus with 10 samples.

Results

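The regions described here are the H3K4me2 regions on chromosomes 1 to 19 and X that lie within 500 bp of an H3K4me1 region and of no H3K4me3 region. By this rule 1994 of the 28979 H3K4me2 regions on these chromosomes were members, out of 85618 regions in the 3 tables of the series. Distance was counted from the end of one region to the start of the next. The rule used positions alone and no read counts, so no region became a member through its Dnmt3a2 reads. The rule itself was chosen with earlier results of these data known.

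FLAG ChIP-seq was used in this study to map Dnmt3a2 in J1 mouse embryonic stem cells at passages 7 to 10. All groups share a Dnmt TKO background, a triple knockout that removes the cells' own DNA methyltransferases, and carry 1 of 3 Dnmt3a2 constructs, labelled WT, WWD and R. The series title speaks of an engineered histone-recognition domain, and the labels do not say which residues WWD and R change. The labels list 6 Dnmt3a2 samples, with a sample numbered 1 and a bulk sample for each construct, beside 3 H3K4me3 samples and 1 input sample. Each table holds 1 Dnmt3a2 column per construct, whose name does not show which of those samples it contains. Their headers give library totals of 24015095 reads for WT, 17259400 for WWD and 25254320 for R. With 1 column per construct there was no replicate check, no test was run, and the values describe these libraries. No input was subtracted from the values, which therefore say nothing of enrichment at a region.

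Methylation of lysine 4 of histone H3 marks regulatory DNA in stages. H3K4me3 is typical of active promoters, H3K4me1 of enhancers, and H3K4me2 is found at both, so a stretch with H3K4me2 next to H3K4me1 and away from H3K4me3 has the layout usually taken for an enhancer. Dnmt3a2 is the shorter isoform of the de novo DNA methyltransferase Dnmt3a and is abundant in embryonic stem cells. Its ADD domain binds the tail of histone H3 when lysine 4 is unmethylated, and methylation of that lysine weakens the contact. The enhancer label could not be checked in these cells. No sample of H3K4me1 or H3K4me2 is listed, the columns named after these marks matched no sample and were not used, and no gene annotation of the mm9 build was used here. Regions are therefore given by mm9 coordinates without a gene.

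The members were short intervals standing beside, and never on, an H3K4me1 region. Over the whole H3K4me2 table, 0 regions overlapped an H3K4me1 region and 0 overlapped an H3K4me3 region, and the smallest distance to either was 2 bp. The median distance from a member to its H3K4me1 neighbour was 199 bp, with quartiles at 86 and 337 bp, and 567 members stood within 100 bp of it. Of the 1994 members, 1896 had a single H3K4me1 region in reach and 98 had 2 or more. Their nearest neighbours were 1925 distinct H3K4me1 regions, and 138 members shared a nearest neighbour with another member. H3K4me3 regions were mostly far away. The median distance was 17909 bp, and 1335 members (67.0%) stood more than 10 kb from any of them, whereas 121 stood within 1 kb.

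Members had further H3K4me1 regions around them more often than the regions beside both marks did, but no more H3K4me2 regions nearby than the regions beside neither. A window of 5 kb on each side held 2 or more H3K4me1 regions at 728 members (36.5%). Since 1 such region is set by the rule, this is compared with the 626 H3K4me2 regions beside both marks, where the rule sets the same and the share was 25.2%. Another H3K4me2 region stood within 1 kb at 22.1% of members, 21.9% of the 13235 H3K4me2 regions beside neither mark, and 33.1% of the 13124 beside H3K4me3 only. The members made up between 4.92% (chromosome 19) and 8.78% (chromosome 16) of the H3K4me2 regions of each autosome. On chromosome X they were 13 of 730, or 1.78%.

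The regions named at the bounds of the rule held few reads. Where several stood at the same distance, the one with the larger mean over the constructs was named. A member at the largest distance from H3K4me1, 500 bp (chr2:109419189-109419288), held 3 reads in R and 0 in WT and WWD. Other members stood at the same 500 bp, such as chr2:4967177-4967276 with 0 reads in WT, WWD and R. The first region beyond that bound, at 501 bp (chr6:124746625-124746724), held 5 WWD reads while WT and R held 0. The member nearest to H3K4me3, at 502 bp (chr16:32813928-32814027), held 1 read in WWD and 0 in the others. The region just on the far side of that bound, at 500 bp (chr17:48110929-48111028), held 1 read in R and 0 in WT and WWD.

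Dnmt3a2 reads were found at more members in WWD than in WT or R. A read was present at 715 members in WWD, or 35.9% (95% exact Clopper-Pearson interval 33.7 to 38.0), against a background of 29.6% of all H3K4me2 regions. In WT it was 419 members, or 21.0% (19.2 to 22.9), against a background of 16.1%. In R it was 408 members, or 20.5% (18.7 to 22.3), against a background of 15.6%. The WT and R intervals overlapped each other and lay wholly below that of WWD. All 3 shares were above the background of the table, so a higher share at members was common to the constructs.

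Mean signal was also highest in WWD. It was 0.685 reads per region per 10000000 library reads in WWD (exact Poisson interval 0.658 to 0.714), 0.391 in WT (0.374 to 0.409) and 0.421 in R (0.403 to 0.439). Behind these means stand 2359 WWD reads, 1873 WT reads and 2118 R reads. WWD was 1.75-fold above WT (1.65 to 1.86) and 1.63-fold above R (1.54 to 1.73). R was 1.08-fold above WT (1.01 to 1.14). All such intervals cover counting error only. They are too narrow, because reads came in clumps: the variance of reads per member was 5.97 times the mean in WT, 3.91 times in WWD and 7.16 times in R, where independent reads would give about 1. The difference between R and WT was small beside that spread, and no difference between them can be drawn from these columns.

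The WWD excess over WT came as more regions with reads and not as more reads per region. The WWD share of members with a read was 1.71 times the WT share, while the depth-scaled signal of the members that held a read was 1.03 times that of WT. Against R the ratio was 1.75 for the share and 0.930 for the signal at members with a read. Over all H3K4me2 regions the same ratios were 1.83 and 0.9996 against WT, and 1.90 and 0.910 against R. The pattern was therefore not particular to members. Unscaled, the mean count at members with a read was 3.30 for WWD, 4.47 for WT and 5.19 for R. How many distinct fragments each library held is not given in the files, and its part in the share with a read was not tested.

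**Figure D1:**
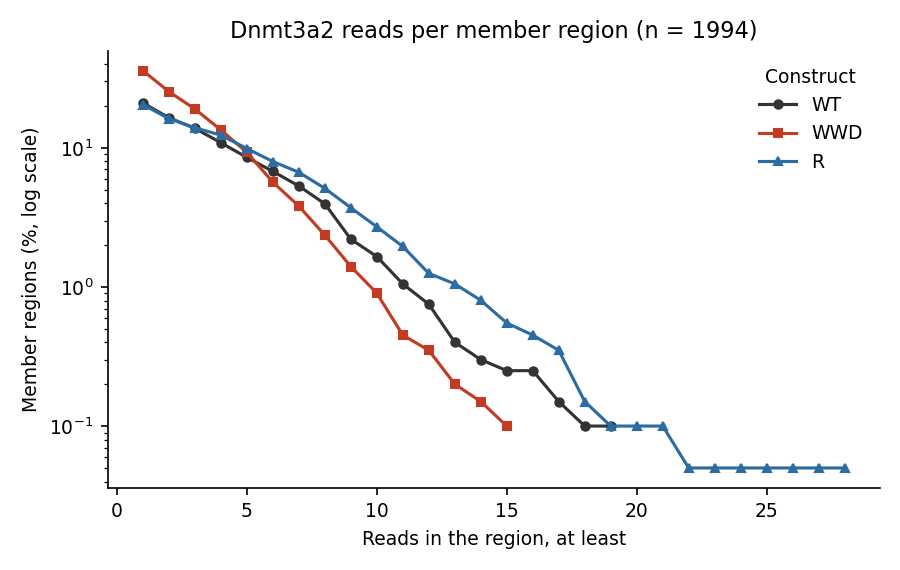
Share of the 1994 member regions (vertical axis, percent, log scale) that held at least the number of Dnmt3a2 reads on the horizontal axis, with 1 line per construct. WWD starts highest, at 35.9%, and falls fastest, ending at 15 reads, whereas WT reaches 19 and R reaches 28.

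Counts of reads were more uneven in WT and R than in WWD. In WWD 210 members held a single read, 320 held 2 to 4, 167 held 5 to 9 and 18 held 10 or more. In WT the counts were 91, 158, 137 and 33, and in R 85, 126, 143 and 54. With 10 or more reads these were 0.903% of members in WWD, 1.65% in WT and 2.71% in R, against backgrounds of 0.742%, 1.20% and 2.04%. Members with 10 or more reads carried 32.3% of all member reads in R and 21.2% in WT, against 8.69% in WWD. The same shares over the whole H3K4me2 table were 33.2%, 22.2% and 9.50%, nearly those of the members. At least 5 reads were held by 9.28% of members in WWD (8.04 to 10.6), 8.53% in WT (7.34 to 9.84) and 9.88% in R (8.60 to 11.3), with overlapping intervals and backgrounds of 6.59%, 6.31% and 7.31%. These counts are not matched for depth: 1 read stands for 0.579 reads per 10000000 in WWD, 0.416 in WT and 0.396 in R.

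Among the 4 classes of H3K4me2 regions, members held the highest share with a read in each construct, but by a small margin over the regions beside neither mark. In WT the share was 21.0% at members (19.2 to 22.9), 19.9% beside neither (19.2 to 20.6), 11.6% beside H3K4me3 only (11.1 to 12.2) and 14.9% beside both (12.2 to 17.9). In WWD it was 35.9% at members, 33.0% beside neither (32.2 to 33.8), 25.4% beside H3K4me3 only (24.7 to 26.2) and 24.9% beside both (21.6 to 28.5). In R it was 20.5% at members, 18.3% beside neither (17.7 to 18.98), 12.0% beside H3K4me3 only (11.5 to 12.6) and 16.0% beside both (13.2 to 19.1). The intervals of members and of regions beside neither mark overlapped in all 3 constructs, barely so in WWD. By mean signal their counting intervals overlapped in WT, at 0.374 to 0.409 for members and 0.362 to 0.375 beside neither. They did not overlap in WWD, at 0.658 to 0.714 and 0.599 to 0.619, or in R, at 0.403 to 0.439 and 0.366 to 0.379. Since those intervals are too narrow for clumped reads, a difference between members and the regions beside neither mark can be neither claimed nor dismissed from 1 column per construct. The share intervals of members and of regions beside H3K4me3 only were well separated in all 3. Within this table, the larger gap in shares thus lay between regions with and without an H3K4me3 neighbour.

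**Figure D2:**
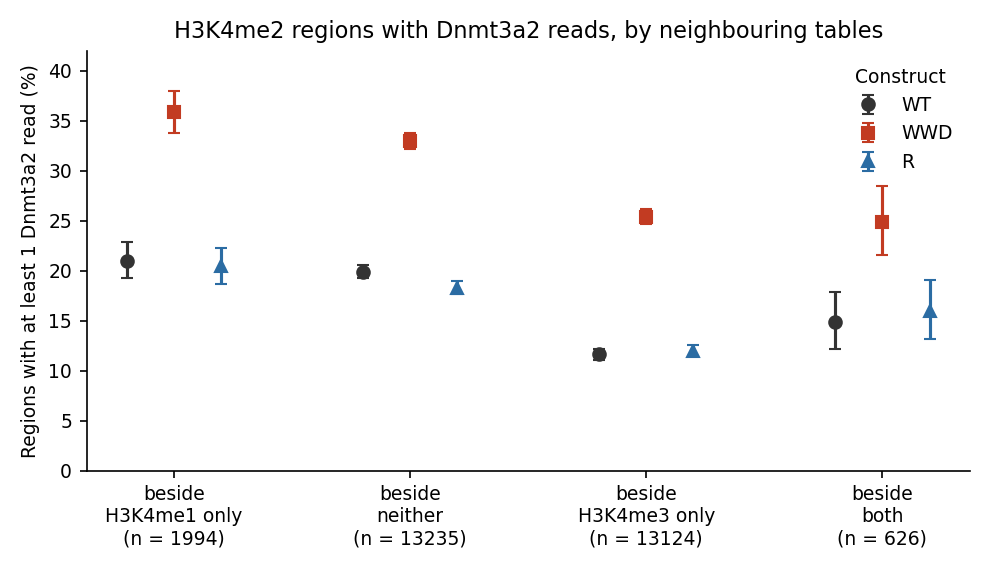
Share of H3K4me2 regions with at least 1 Dnmt3a2 read (vertical axis, percent) in 4 classes by the tables they lie within 500 bp of, with 1 marker per construct and exact 95% intervals that cover counting error only. The 1994 members, at the left, stand at 21.0% in WT, 35.9% in WWD and 20.5% in R, close to the 13235 regions beside neither mark and above the 13124 beside H3K4me3 only.

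The WWD to WT ratio of mean signal was lower at members than at the regions beside H3K4me3 only. It was 1.75 at members (1.65 to 1.86), 1.65 beside neither (1.61 to 1.69), 1.52 beside both (1.32 to 1.74) and 2.20 beside H3K4me3 only (2.13 to 2.27). The interval at members overlapped those beside neither and beside both. WT signal itself was lowest beside H3K4me3 only, at 0.204 reads per 10000000, against 0.391 at members, whereas WWD signal was 0.450 there and 0.685 at members. The members held 9.16% of all WT reads of the table, 8.76% of the WWD reads and 9.30% of the R reads, while making up 6.88% of its regions. The regions beside neither mark also held more reads per region than the whole table. Their means were 0.369 against 0.294 in WT, 0.609 against 0.538 in WWD and 0.372 against 0.311 in R.

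Most members held reads in 1 construct or in none. No read in any construct was found at 819 members (41.1%), against a background of 51.6%. A read in WWD alone was found at 443 (22.2%), against a background of 19.9%. Reads in WT alone were found at 194 members (9.73%), against a background of 8.50%, and in R alone at 207 (10.4%), against a background of 8.27%. Exactly 2 constructs had a read at 295 members (14.8%), against a background of 10.5%. All 3 constructs had a read at 36 members, or 1.81% (1.27 to 2.49), against a background of 1.15%. At members, a read in one construct said little about a read in another. The same split over all H3K4me2 regions was not computed. Of the 419 members with a WT read, 39.6% also had one in WWD (34.9 to 44.5), against 34.9% of the 1575 members without a WT read (32.5 to 37.3). An R read was present at 22.7% of the members with a WT read (18.7 to 27.0) and at 19.9% of those without (17.9 to 21.9). Of the members with a WWD read, 19.9% had one in R (17.0 to 22.98), against 20.8% of those without (18.6 to 23.1). Spearman's rho of reads across the 1994 members, which are not replicates and mostly hold 0 reads, was 0.030 for WWD and WT, 0.026 for R and WT, and -0.0098 for WWD and R.

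Counts of members past 2-fold followed the totals. With 1 read per 10000000 added to each value, 418 members (21.0%, interval 19.2 to 22.8) were over 2-fold higher in WWD than in WT, against a background of 17.0% of all H3K4me2 regions. Lower in WWD were 193 members (9.68%, interval 8.42 to 11.1), against a background of 7.53%. For R against WT, 234 members were higher (11.7%, background 8.77%) and 227 lower (11.4%, background 8.66%), so the directions were nearly even. For WWD against R, 417 were higher (20.9%, background 17.2%) and 204 lower (10.2%, background 7.77%). Both directions were above the background in each comparison. Against 0 reads, 2 reads in WWD pass this threshold but 3 are needed in WT or R, which favours calls of WWD higher.

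The single members with the largest differences had many reads in 1 construct and few or none in the others. They were picked as extremes among 1994 regions, so their size is partly fixed by the choice. The member chr11:53886811-53886910 held 15 WWD reads, while WT and R held 0. A count of 0 was given a limit of 3 reads in each library. Scaled for depth, WWD was 6.96-fold the limit of WT and 7.32-fold the limit of R. Folds against this limit, here and below, leave out counting error in the higher count and are not interval bounds. Its H3K4me1 neighbour, 436 bp away, held 4 reads in WWD and 0 in the others. A second member with 15 reads in WWD and 0 elsewhere was chr16:23238193-23238292, whose neighbour held 0 reads in all 3. The next, chr17:84496201-84496300, held 14 WWD reads while WT and R held 0. These 3 members thus had reads in WWD alone, and they were also the largest differences of WWD over R.

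In the other direction, chr5:34265886-34265985 held 19 WT reads, 0 WWD reads and 13 R reads, and had the highest mean over the constructs of any member. WT there was 4.55-fold the 3-read limit of WWD, and the neighbour 64 bp away held 0 reads in each construct. The member chr17:47131919-47132018 held 17 reads in WT and 0 in both mutants, and chr12:4396260-4396359 held 16 and 0. For WT against R, chr16:23270124-23270223 held 19 WT reads, 3 WWD reads and 0 R reads. There WT was 4.55-fold above WWD, with a counting interval of 1.34 to 24.0. That interval does not allow for the choice of this member as an extreme. At chr17:84427165-84427264, 937 bp from H3K4me3, there were 16 WT reads, 1 WWD reads and 0 R reads.

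The largest single count was in R. The member chr10:28388117-28388216 held 28 reads in R and 0 in WT and WWD. R there was 8.88-fold the 3-read limit of WT and 6.38-fold that of WWD. Its H3K4me1 neighbour, 27 bp away, held 4 reads in R, 1 in WWD and 0 in WT. The member chr5:33354944-33355043 held 21 reads in R and 0 elsewhere, and its neighbour 7 bp away held 0 in all 3. At chr11:53243363-53243462, with 18 reads in R and 0 elsewhere, the neighbour had its reads in another construct, with 13 in WWD and 0 in R.

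Members with reads in every construct included the second and the third highest means over the constructs, at chr5:151957210-151957309 and chr1:37732225-37732324. At chr1:37732225-37732324, which led the members ranked by their lowest construct, there were 4 WT reads, 10 WWD reads and 11 R reads. WWD was 3.48-fold above WT there, with a counting interval of 1.003 to 15.2. The member chr17:26191562-26191661 held 4, 4 and 6 reads in WT, WWD and R, and chr11:102904502-102904601 held 4, 3 and 5. At chr5:151957210-151957309 there were 3 WT reads, 12 WWD reads and 11 R reads. At none of these 4 was the lower bound of the R to WT ratio above 1. All 4 were ranked by these same reads, and the intervals allow neither for that choice nor for clumped reads. No difference between constructs is drawn from their bounds.

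The nearest H3K4me1 regions gave a second readout at the same loci, on sequence that does not overlap the members. At these 1925 neighbours a read was present in 36.5% in WWD (34.3 to 38.7), 19.5% in WT (17.8 to 21.4) and 16.3% in R (14.6 to 18.0). The WWD and WT shares were within the intervals of the members, whereas the R share lay below that of the members, 20.5% (18.7 to 22.3). Over the 1994 pairs, R reads at the member were 1.31 times those at the neighbour (1.23 to 1.40), WT reads 1.09 times (1.02 to 1.16) and WWD reads 0.921 times (0.871 to 0.975). The R to WT ratio of mean signal was 0.888 at the neighbours (0.829 to 0.952) and 1.08 at the members (1.01 to 1.14). At the remaining 22361 H3K4me1 regions, which include one with 1246 WT reads, R was also below WT by the share with a read, 18.7% (18.2 to 19.2) against 22.98% (22.4 to 23.5). The WWD share there was 39.9% (39.2 to 40.5). In each construct the neighbours of members thus held a read less often than the remaining H3K4me1 regions. The WWD to WT ratio was 2.04 at the neighbours (1.91 to 2.17), above the 1.75 of the members. At the remaining H3K4me1 regions it was 1.79 (1.77 to 1.82), a value that includes the region with 1246 WT reads.

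Reads at a member and at its neighbour hardly went together, within or between constructs. In WT 19.3% of neighbours held a WT read where the member did (15.7 to 23.4), and 19.4% where it did not (17.4 to 21.4). In WWD the shares were 37.9% (34.3 to 41.6) and 35.7% (33.1 to 38.4). In R they were 19.1% (15.4 to 23.3) and 15.5% (13.8 to 17.4), the widest gap of the 3, with intervals that overlapped. Both regions of a pair held a read at 81 pairs in WT, 271 in WWD and 78 in R. Taken as a pair, at least 1 of the 2 regions held a read at 36.3% of pairs in WT, 58.8% in WWD and 32.8% in R. Such a share cannot fall below that of the members alone, and pairs of other regions were not counted.

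**Figure D3:**
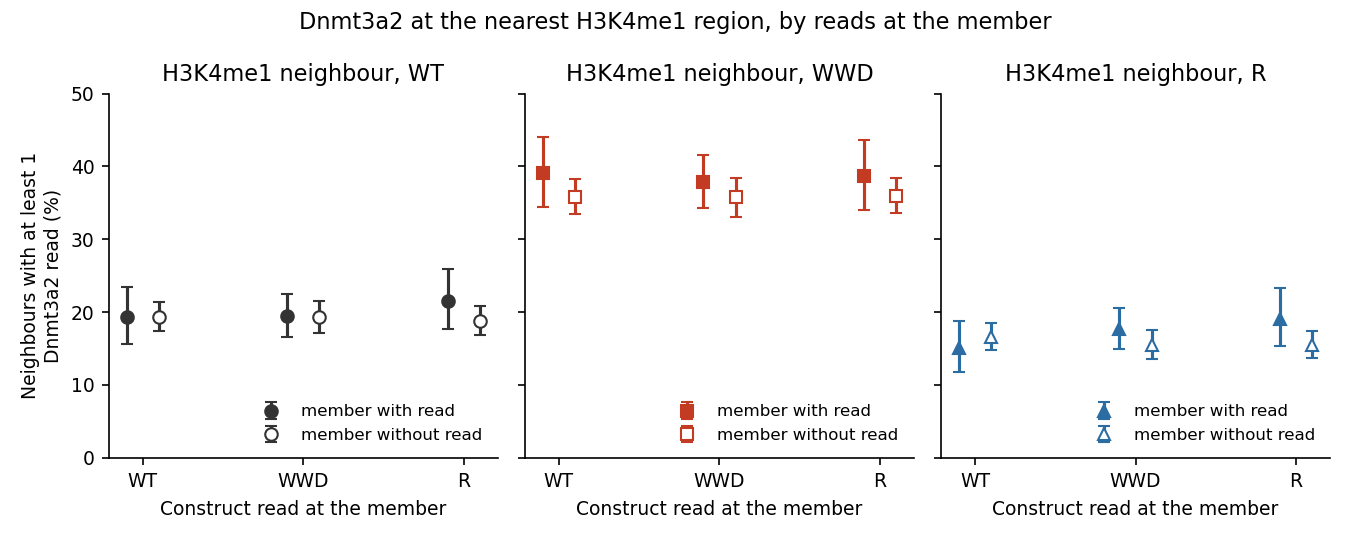
Share of nearest H3K4me1 regions with at least 1 Dnmt3a2 read (vertical axis, percent), with 1 panel per construct read at the neighbour, split by whether the member held a read (filled) or not (open) in the construct on the horizontal axis. Bars are exact 95% intervals that cover counting error only. Filled and open markers overlap in every pair, as in WT against WT with 19.3% and 19.4%.

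Distance from the H3K4me1 neighbour brought no steady trend. The share of members with a WT read was 20.1% within 100 bp, 25.4% at 101 to 200 bp, 21.6% at 201 to 300 bp, 17.8% at 301 to 400 bp and 19.1% at 401 to 500 bp. In WWD it was 33.5%, 36.6%, 37.0%, 39.6% and 33.3% over the same bins, and in R 19.6%, 22.7%, 20.5%, 18.3% and 21.3%. The WWD to WT ratio of signal ranged from 1.48 at 101 to 200 bp (1.31 to 1.68) to 2.52 at 301 to 400 bp (2.15 to 2.97), where WT signal was lowest at 0.292.

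Distance from the nearest H3K4me3 region was compared with that of the regions beside neither mark, which share its lower bound. Among the 121 members at up to 1000 bp, a read was present at 15.7% in WT (9.73 to 23.4), 29.8% in WWD (21.8 to 38.7) and 22.3% in R (15.2 to 30.8). At 1001 to 5000 bp, with 239 members, the shares were 22.2%, 34.7% and 18.8%. At 5001 to 20000 bp, with 703 members, they were 21.3%, 35.0% and 21.5%. The 486 members at 20001 to 50000 bp had 24.1% for WT, 41.4% for WWD (36.9 to 45.9) and 20.6% for R. The 445 farther ones had 18.0%, 33.5% and 19.1%. In WWD the members at 20001 to 50000 bp stood above the regions beside neither mark at the same distance, which had 32.7% (30.9 to 34.6). The intervals of members and of those regions overlapped in the other 14 of the 15 pairs of construct and distance.

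**Figure D4:**
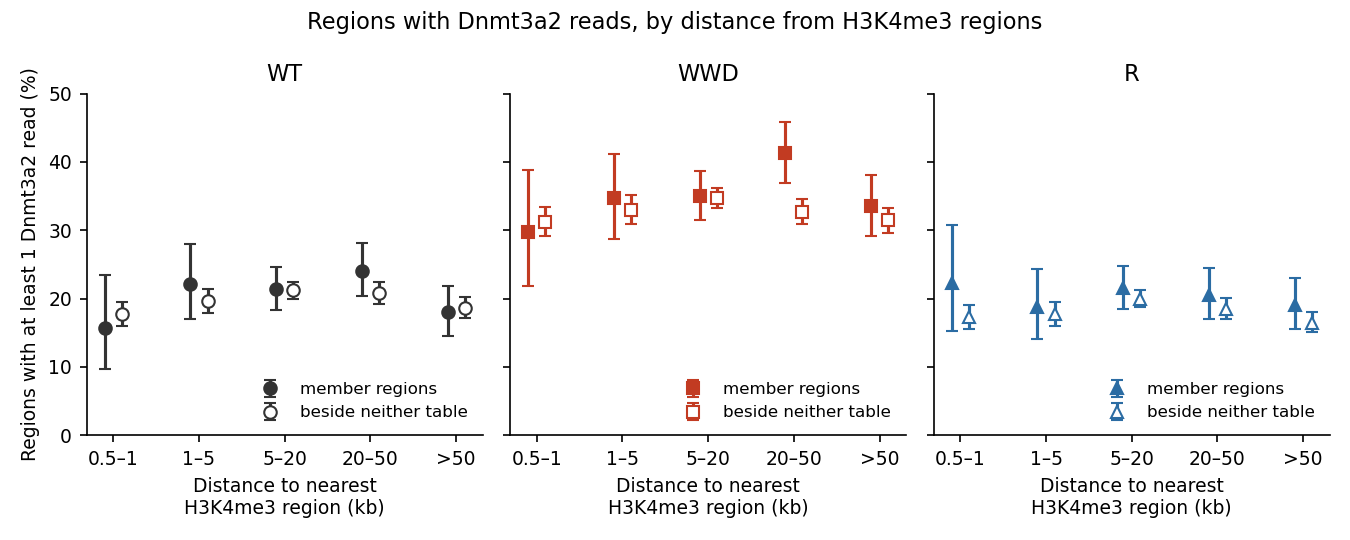
Share of regions with at least 1 Dnmt3a2 read (vertical axis, percent) by distance to the nearest H3K4me3 region in kb (horizontal axis), with 1 panel per construct, for members (filled) and H3K4me2 regions beside neither mark (open). Bars are exact 95% intervals that cover counting error only. The pair that stands apart is WWD at 20 to 50 kb, with 41.4% of members against 32.7%.

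The H3K4me3 regions nearest to members carried less H3K4me3 than the table as a whole. For the 659 members with an H3K4me3 region within 10 kb, the 626 nearest such regions had a median of 12.2 H3K4me3 reads per 10000000 in WT (quartiles 3.72 and 39.9), 12.3 in WWD and 10.2 in R. For the 1335 members farther away, the 1158 nearest regions had medians of 16.5, 15.2 and 12.8. Over all 32292 H3K4me3 regions on these chromosomes the medians were 21.8 in WT (quartiles 6.91 and 49.5), 19.6 in WWD and 17.5 in R. These include 12296 regions nearest to an H3K4me2 region beside H3K4me3 only, with a median of 30.3 in WT. The rule bars members from having such a region within 500 bp. H3K4me3 regions nearest to the regions beside neither mark were not compared, so the lower level cannot be called particular to members. No H3K4me3 read at all was present at 12.9% of the 626 regions in WT, 17.6% in WWD and 27.3% in R. Over all H3K4me3 regions these shares were 8.10%, 11.9% and 17.9%, with the same order of the constructs, and at the 1158 regions nearest to farther members 10.6%, 16.1% and 22.4%. All of these columns came from 1 sample each, and the quartiles overlapped widely.

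The WWD excess was spread over the chromosomes. The share of members with a read was higher in WWD than in WT, and higher than in R, on each of the 19 autosomes. By mean signal WWD was above WT on 19 autosomes and above R on 18, and R was above WT on 9. The autosomal means ran from 0.224 on chromosome 1 to 0.537 on chromosome 10 in WT, around a median of 0.407. In WWD they ran from 0.495 on chromosome 9 to 0.982 on chromosome 5 (median 0.647), and in R from 0.181 on chromosome 19 to 0.704 on chromosome 17 (median 0.419). The chromosomes at the extremes were different ones in each construct. On chromosome 8 the 113 members had 0.969 times the median autosome in WT, 1.30 times in WWD and 1.26 times in R. On chromosome X a read was present at 0 of 13 members in WT, which allows a share of up to 23.1% by a limit of 3 counts and 24.7% by the exact interval, at 4 in WWD and at 1 in R.

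**Figure D5:**
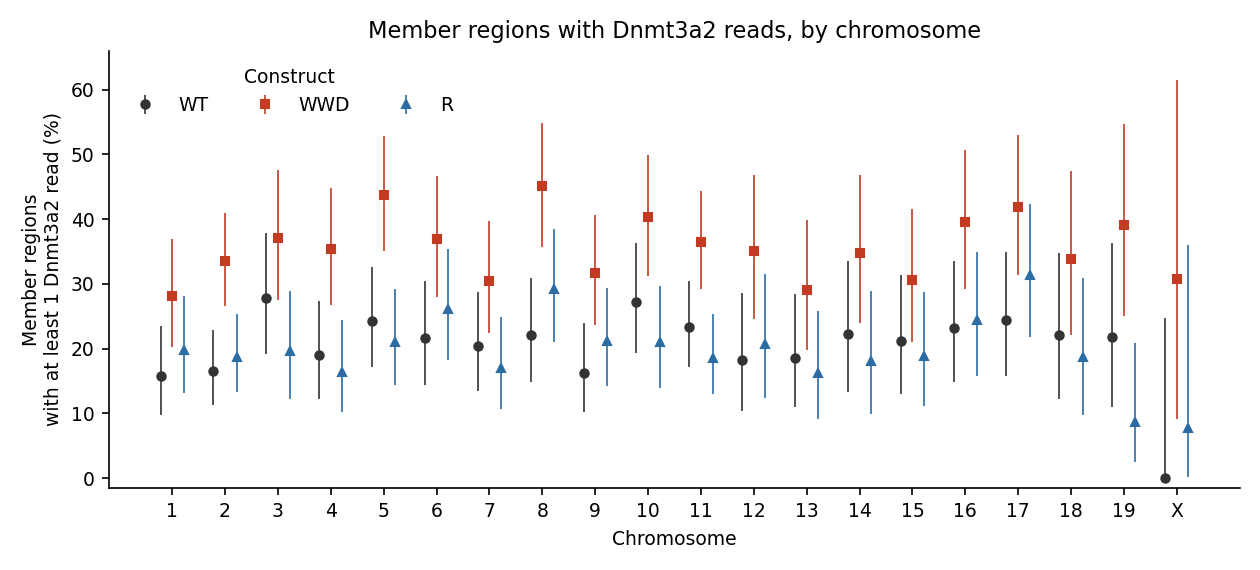
Share of members with at least 1 Dnmt3a2 read (vertical axis, percent) on each chromosome (horizontal axis), with 1 marker per construct and exact 95% intervals that cover counting error only. WWD markers stand above WT and R on all 19 autosomes, and the intervals are wide on chromosome X, which has 13 members.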

How the data were processed

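The submitters' processing notes name Bowtie and the mm9 build; read filters and region calling are steps not given in the sources used here. Per the file headers, the authors counted reads in 100 bp and scaled each column by a factor. The deposited values are on a log2 scale with 1 added, and carry a random amount below 1 read; both were read from the values and not from a source. Whole reads were recovered by inverting this form. On simulated tables with the same form, 99.8% of values were recovered exactly in WT, 99.0% in WWD and 99.7% in R, with errors of at most 1 read. This tests the rounding and not the form.

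Classes were set at 500 bp, and distances were checked with bedtools 2.31.1. Shares have exact Clopper-Pearson intervals. Means and ratios have exact Poisson and conditional intervals. All are 95% intervals and cover counting error only: reads copied by PCR are not separate molecules. Scripts ran in Python 3.11.15 with scipy 1.17.1, pandas 2.3.3 and numpy 2.4.6. The members and all comparisons were chosen with earlier results of these data known. Named regions were the 3 largest differences each way, the 3 highest means, the 3 highest lowest values and those at the bounds. A further 2 columns matched no sample and were not used.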

Additional observations from a re-analysis of the deposited data

How the results depend on the processing

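The 16 results were recomputed under other settings, giving 89 values. Of these, 49 lay within the counting interval of the reported value, 39 were counted as outside and 1 turned direction. Shares past 2-fold and the share with reads in all 3 constructs were judged by a limit of 1.5 times instead. The median log2 differences for WWD are on another scale than the ratios and count among the 39 without a comparison to an interval. A change of distance applied to H3K4me1 and to H3K4me3 together. With 100 bp there were 625 members, with means of 0.348 in WT and 0.637 in WWD. Shares with a read were 19.2% in WT and 32.2% in WWD, the R to WT ratio 1.22 and the WWD to R ratio 1.503. These 625 could include regions within 500 bp of H3K4me3, which the main rule bars. The 567 main members within 100 bp of H3K4me1 had means of 0.368 in WT and 0.661 in WWD. With 1000 bp there were 2926 members, with means of 0.643 in WWD and 0.400 in R. Keeping the 331 members with a read in at least 2 constructs, which leaves out by construction the members with reads in 1 construct, gave means of 1.25 for WT, 1.52 for WWD and 1.28 for R, and lowered WWD to WT to 1.21 and WWD to R to 1.18. Counting only members with at least 2 reads gave 16.4% for WT, 25.3% for WWD, 16.2% for R and 0.552% for all 3 constructs together. At least 5 reads gave 8.53%, 9.28%, 9.88% and 0%, with overlapping intervals for the 3 constructs, so the constructs were not told apart at that minimum, which is not matched for depth. The median difference of deposited log2 values was 0.16 for WWD minus WT, 0.17 for WWD minus R and -0.01 for R minus WT, the one value that turned direction. Most members held 0 reads, and there the deposited value holds only the random amount scaled by the column's factor.

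For members past 2-fold, a pseudocount of 5 left 0.953% higher and 0.351% lower in WWD against WT, 0.752% and 0.301% in R against WT, and 1.003% and 0.602% in WWD against R. Among the 645 members above 3 reads in a construct the shares were 40.2% and 25.7%, 33.3% and 28.7%, and 39.4% and 28.8%. That filter keeps a member through any 1 construct where it is high, so it raises these shares by construction. The same shares over all H3K4me2 regions were not computed. With a read in at least 2 constructs, 30.5% were higher and 19.6% lower in WWD against WT, and 30.2% and 19.6% in WWD against R. In R against WT, 28.7% were higher and 29.9% lower. That filter drops the members without any read, which cannot pass 2-fold. For it, too, the shares over all H3K4me2 regions were not computed. Autosomes alone, and a cap of 20 reads per region, moved no value outside its interval. No paired analysis was possible because each construct had 1 Dnmt3a2 column, and for the same reason no sample could be left out. Settings that need regions to overlap gave no value, since none did.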
